A study of Mus musculus with 19 samples.

Results

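Transcript levels of 10 transcription factors of the core and naive pluripotency network were examined in single mouse blastocysts. The members were taken by gene symbol: Pou5f1, Nanog, Sox2, Klf2, Klf4, Klf5, Esrrb, Tfcp2l1, Tbx3 and Zfp42. All 10 were among the 14173 genes listed. Polyadenylated RNA had been measured in 9 Padi6-mutant and 10 Control blastocysts, with 1 library per embryo. The mutation, P620A in Padi6, was carried by the oocyte, so the Padi6-mutant embryos are defined by the egg from which they came. PADI6 is part of the subcortical maternal complex, a protein assembly that the egg hands on to the early embryo. The strain, the father's genotype, the age of the embryos and any litter or collection day are not given in the sources used here.

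Pluripotency in the mouse embryo is held in the epiblast cells of the inner cell mass, the group of cells inside the blastocyst that will form the embryo proper. POU5F1 (OCT4), SOX2 and NANOG form its core and bind many enhancers together. KLF2, KLF4, KLF5, ESRRB, TFCP2L1 and TBX3 add inputs from the LIF and WNT pathways and mark the naive state, of which Zfp42 (REX1) is a widely used reporter gene. Several of these genes are not limited to the epiblast: Klf5 and Tfcp2l1 are also transcribed in the trophectoderm, the outer layer that will form the placenta. A whole blastocyst was measured in each library, so fewer cells of a type and less RNA per cell cannot be told apart.

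Promoter sequences are shown for 5 of the factors. The members' shared regulation by POU5F1 and SOX2 is best known from an octamer and a SOX element side by side in the Nanog promoter. The 5 were also chosen for their levels, which were known. Pou5f1 and Tfcp2l1 were lower in Padi6-mutant embryos, while Nanog, Zfp42 and Sox2 did not pass the test given below, and none was higher. RefSeq promoter entries (GRCm38.p6) were found for 8 of the 10 members. The 250 bases before the first listed start are printed from 5′ to 3′ on the gene's strand, with matches to 3 motifs in capitals: the octamer ATGCAAA, the SOX motif CATTGT and the KLF motif CCACACCC, searched on both strands.
Nanog: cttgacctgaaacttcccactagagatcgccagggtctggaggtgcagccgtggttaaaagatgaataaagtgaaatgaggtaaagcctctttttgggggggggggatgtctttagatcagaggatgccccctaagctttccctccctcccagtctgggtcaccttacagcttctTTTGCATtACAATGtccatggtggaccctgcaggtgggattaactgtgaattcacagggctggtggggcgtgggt
Zfp42: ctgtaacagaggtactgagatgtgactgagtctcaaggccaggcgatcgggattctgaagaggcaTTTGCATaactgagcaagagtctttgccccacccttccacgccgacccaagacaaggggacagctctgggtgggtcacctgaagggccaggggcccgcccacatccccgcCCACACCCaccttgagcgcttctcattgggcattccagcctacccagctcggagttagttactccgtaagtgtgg
Sox2: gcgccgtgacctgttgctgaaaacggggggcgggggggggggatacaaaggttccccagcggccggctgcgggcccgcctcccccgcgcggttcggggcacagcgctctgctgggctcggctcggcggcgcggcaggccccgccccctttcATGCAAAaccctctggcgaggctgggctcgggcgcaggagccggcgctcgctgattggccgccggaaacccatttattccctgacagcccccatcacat
Pou5f1: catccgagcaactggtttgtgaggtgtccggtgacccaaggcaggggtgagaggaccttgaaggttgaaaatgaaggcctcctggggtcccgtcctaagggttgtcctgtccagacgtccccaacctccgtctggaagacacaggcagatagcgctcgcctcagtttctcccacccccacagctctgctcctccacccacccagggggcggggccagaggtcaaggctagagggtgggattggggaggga
Tfcp2l1: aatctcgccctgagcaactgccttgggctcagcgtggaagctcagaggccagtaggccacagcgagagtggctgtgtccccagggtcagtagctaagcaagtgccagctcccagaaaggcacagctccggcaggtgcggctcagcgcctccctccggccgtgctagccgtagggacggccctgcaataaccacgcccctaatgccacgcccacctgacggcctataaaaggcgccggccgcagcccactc

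The Nanog sequence (chr6:122707239-122707488, + strand) held an octamer whose first base lay 75 bases before the start and a SOX motif 67 bases before it, both on the opposite strand. An octamer and a SOX motif within 3 bases of each other occurred in 6 of 32851 promoters (0.0183%), and 2 of those 6 were starts of Nanog. Zfp42 (chr8:43307010-43307259, − strand) held an octamer 185 bases and a KLF motif 75 bases before its start. Sox2 (chr3:34649745-34649994, + strand) held an octamer 99 bases before its start. The windows of Pou5f1 (chr17:35505782-35506031, + strand) and Tfcp2l1 (chr1:118627695-118627944, + strand) held none of the 3 motifs, although another listed start of Pou5f1 had a SOX motif. The windows of Klf2, Klf4 and Esrrb, which are not printed, held none either. A link between these motifs and the levels was not tested. Among all promoters the octamer occurred in 4.12%, the SOX motif in 10.7% and the KLF motif in 3.20%. The ESRRB motif TCAAGGTCA (0.387% of all promoters) and the STAT motif TTCCNGGAA (0.913%) were in none of the 11 member promoters. A match is a string of letters in this window and not a measured site.

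The 10 factors did not move together. Pou5f1, Tfcp2l1, Tbx3 and Klf2 were lower in Padi6-mutant than in Control blastocysts, at an adjusted p under 0.05 (limma across all 14173 genes). None of the 10 was higher by limma, also at an unadjusted p under 0.05 (0 of 10). Nanog, Klf4, Klf5 and Zfp42 did not pass, with differences between −0.04 and 0.06 on the log2 scale. Sox2 and Esrrb were at 0 and at 2 scaled counts in 1 Padi6-mutant embryo and did not pass the test. Of all genes, 12% were lower by the same rule, 14.6% higher and 26.6% either way, and the median log2 difference was −0.76 over the 10 factors and −0.10 over all genes. All factors but Sox2 lay above the median level of all genes. In a fit to the 7086 genes above that level, 18.8% were lower and 17.5% higher. All values below are log2(scaled count + 1), and a difference is Padi6-mutant minus Control.

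The Padi6-mutant libraries had more undetected genes. Between 113 and 596 listed genes were at 0 in Padi6-mutant libraries, against 30 to 247 in Control libraries. Padi6-mutant 6, 8, 9 and 10 had over 400 and are called the sparse libraries here. Each result was also computed without these 4, with the number of genes at 0 as a covariate, and after a trend on transcript length and GC content had been removed from each library. With the covariate 2 of the 10 factors were lower (3.52% of all genes), without the sparse libraries 3 (6.64%) and with the length and GC trend removed 3 (10.2%). The transcript of Padi6 itself averaged 6.49 ± 2.16 in Padi6-mutant and 6.53 ± 1.5 in Control blastocysts (SD, n = 9 and 10), with an adjusted p of 0.976 (limma). A mutation that changes 1 amino acid need not alter the transcript, so this level does not check the labels.

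**Figure D1:**
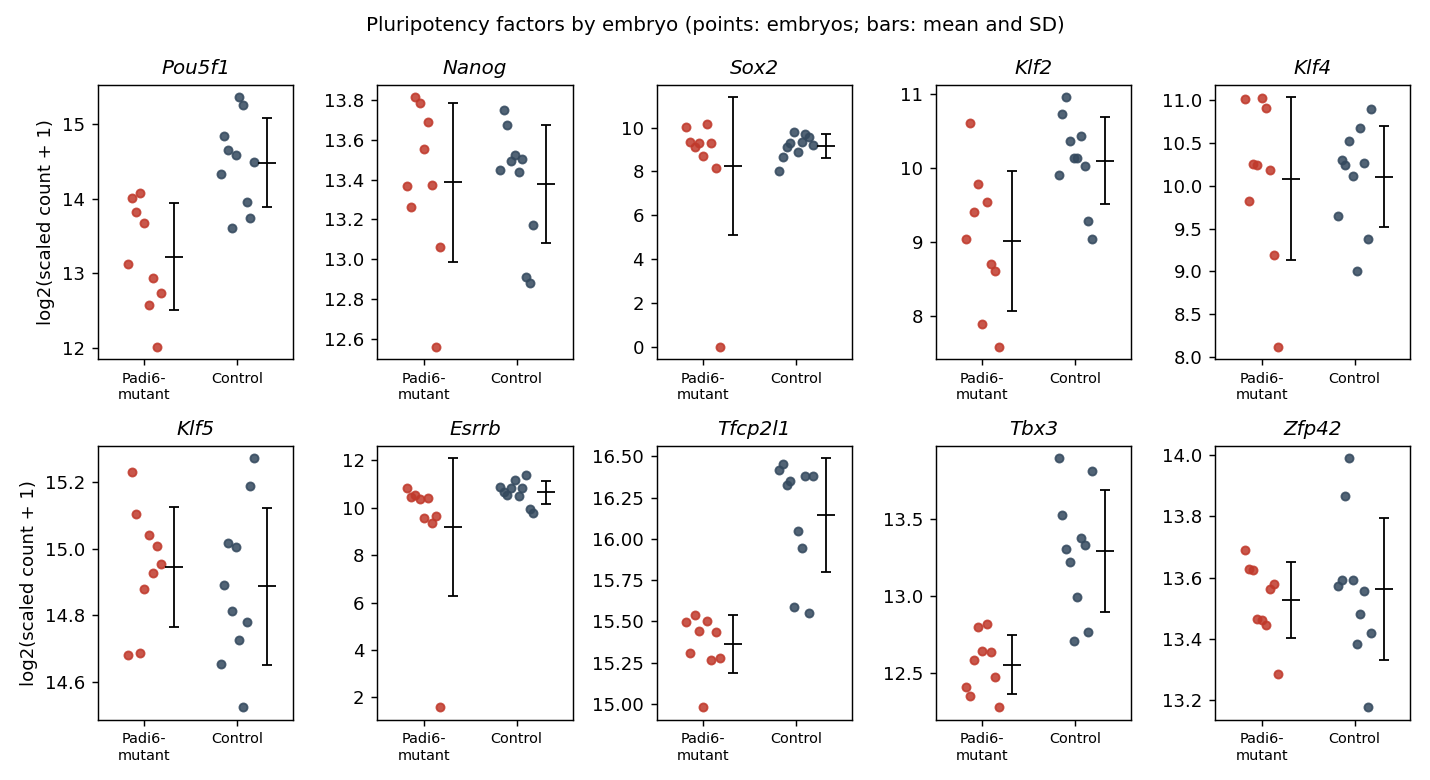
Level of each of the 10 factors in every embryo, as log2(scaled count + 1) on axes that differ between panels, with Padi6-mutant embryos left of Control embryos, 1 point per embryo and bars for the mean and SD. The 9 Padi6-mutant points of Tfcp2l1 lie below all 10 Control points, while those of Nanog, Klf5 and Zfp42 lie among the Control points for the most part, and Sox2 and Esrrb each have 1 Padi6-mutant point far below the rest.

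Pou5f1, the POU-domain factor without which no pluripotent inner cell mass forms, was the core factor that differed. Its level was between 12.02 and 14.07 in Padi6-mutant embryos, with a median of 13.13, against 13.60 to 15.35 and a median of 14.54 in Control embryos. All 9 Padi6-mutant embryos lay below the Control median, and 5 of them (2, 7, 8, 9 and 10) lay below every Control embryo. The means were 13.22 ± 0.71 in Padi6-mutant and 14.48 ± 0.59 in Control embryos (SD, n = 9 and 10). Pou5f1 fell by 1.26 on the log2 scale, with a standard error of 0.27 and an adjusted p of 0.00158 (limma). An exact two-sided permutation of the embryos over all 92378 splits gave p = 6.93e-04. The difference was −0.96 without the sparse libraries (adjusted p = 0.0318) and −0.87 with the covariate (adjusted p = 0.0710), so the covariate ended the call.

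Nanog, the homeodomain factor that marks the epiblast as it parts from the primitive endoderm, had nearly the same mean in both groups. It lay between 12.56 and 13.81 in Padi6-mutant embryos, with a median of 13.37, and between 12.88 and 13.75 in Control embryos, with a median of 13.47. Padi6-mutant 9 was the single embryo below the Control range, and Padi6-mutant 4 and 5 were above it. The difference was 0.0070 with a 95% interval of −0.34 to 0.35 and an adjusted p of 0.982 (limma). GENCODE release M 21 lists pseudogene copies of Nanog and of Zfp42, and the counting tool is not given in the sources used here, so a part of the reads of these 2 genes may have been shared with copies.

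Sox2, the HMG-box partner of POU5F1, was detected in 8 of the 9 Padi6-mutant embryos and in all 10 Control embryos. Padi6-mutant 10 had no scaled count at all. The other 8 Padi6-mutant embryos lay between 8.15 and 10.17, against 8.04 to 9.81 in Control embryos, so these ranges overlapped almost wholly. The difference was −0.93 with a standard error of 0.88 and an adjusted p of 0.459 (limma), and it was 0.10 without Padi6-mutant 10.

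Of the 3 Krüppel-like factors, Klf2 was lower, and Klf4 and Klf5 did not pass. Klf2, a direct target of POU5F1 in mouse embryonic stem cells, had a level of 7.58 to 10.62 in Padi6-mutant embryos, with a median of 9.04, against 9.05 to 10.96 and a median of 10.13 in Control embryos. In 8 of 9 Padi6-mutant embryos it was below the Control median, and in 5 it was below every Control embryo. Klf2 fell by 1.09 on the log2 scale, with a standard error of 0.34 and an adjusted p of 0.0201 (limma). The exact two-sided permutation test gave p = 0.00777. The call was lost without the sparse libraries (−0.43, adjusted p = 0.363), with the covariate (−0.26, 0.623) and with the length and GC trend removed (−0.67, 0.117).

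Klf4, a target of LIF and STAT3 signalling, averaged 10.08 ± 0.95 in Padi6-mutant and 10.11 ± 0.59 in Control embryos (SD, n = 9 and 10). Padi6-mutant embryos lay on both sides of the Control range: 2, 6 and 7 were above its highest value of 10.89, and 10 was below its lowest value of 9.00, at 8.12. The difference of −0.02 had a 95% interval of −0.71 to 0.66 and an adjusted p of 0.971 (limma). Klf5, which acts in both the inner cell mass and the trophectoderm, lay between 14.68 and 15.23 in Padi6-mutant embryos and between 14.52 and 15.27 in Control embryos. All 9 Padi6-mutant embryos were within the Control range. Its difference was 0.06, with a 95% interval of −0.21 to 0.33 and an adjusted p of 0.771 (limma). After quantile normalization it was −0.36 with an adjusted p of 0.0602. None of the 12 other KLF genes listed, a set added after the data were seen, passed limma in either direction (median difference −0.32; 1 was lower and 0 higher at an unadjusted p under 0.05), against 26.6% of all genes. Under other fits 3 of them passed: Klf6 without the sparse libraries (−0.55, adjusted p = 0.0323), Klf11 with the length and GC trend removed (0.71, 0.0344), and Klf8 with library quality weights (−0.54, 0.0233) and without Control 9 (−0.57, 0.0256).

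Esrrb, the orphan nuclear receptor that acts downstream of WNT and GSK3 inhibition in naive cells, had 2 scaled counts in Padi6-mutant 10, a level of 1.58. In the other 8 Padi6-mutant embryos it was 9.35 to 10.83, against 9.78 to 11.36 in Control embryos. Of the 9 Padi6-mutant embryos 8 were below the Control median, and 4 were below every Control embryo. The difference was −1.45 with a standard error of 0.81 and an adjusted p of 0.189 (limma), and −0.50 without Padi6-mutant 10. The exact two-sided permutation test gave an unadjusted p of 0.0189. With the covariate the difference was 0.069.

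Tfcp2l1, a grainyhead-family factor that carries the LIF signal in mouse embryonic stem cells, was the factor whose groups did not overlap. Its level was 14.98 to 15.54 in Padi6-mutant embryos, with a median of 15.43, against 15.55 to 16.45 and a median of 16.34 in Control embryos. The gap between the highest Padi6-mutant embryo (4) and the lowest Control embryo (9) was narrow, and Control 5 and 9 stood apart from the other 8 Control embryos. Of all genes, 0.289% (41 genes) had every Padi6-mutant embryo below every Control embryo. Tfcp2l1 fell by 0.79 on the log2 scale, with a standard error of 0.15 and an adjusted p of 5.74e-04 (limma). The exact two-sided permutation test gave p = 8.66e-05.

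Tbx3, a T-box factor of naive cells that is also known from the primitive endoderm, had a level of 12.28 to 12.82 in Padi6-mutant embryos, with a median of 12.59, against 12.71 to 13.90 and a median of 13.32 in Control embryos. All 9 Padi6-mutant embryos were below the Control median and 7 were below every Control embryo; the lowest Control embryos were again 5 and 9. Tbx3 fell by 0.74, with a standard error of 0.16 and an adjusted p of 0.00120 (limma). The exact two-sided permutation test gave p = 1.84e-04. Tfcp2l1 and Tbx3 passed in all 13 fits other than those that omit single embryos, and in each of those as well. With the length and GC trend removed, the difference was −0.39 for Tbx3 (adjusted p = 0.0249, limma) and −0.60 for Tfcp2l1 (0.0138). With the covariate it was −0.61 for both (0.0370 and 0.0286). After quantile normalization that of Tfcp2l1 was −1.22. In the longest 10% of transcripts, which include Tfcp2l1 (9269 bases), 19.9% of genes were lower, with a median difference of −0.31.

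Zfp42, the zinc finger gene whose reporter marks naive cells, had nearly the same mean in both groups. It lay between 13.29 and 13.69 in Padi6-mutant embryos and between 13.18 and 13.99 in Control embryos. No Padi6-mutant embryo left the Control range. The difference was −0.04, with a 95% interval of −0.28 to 0.21 and an adjusted p of 0.852 (limma).

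**Figure D2:**
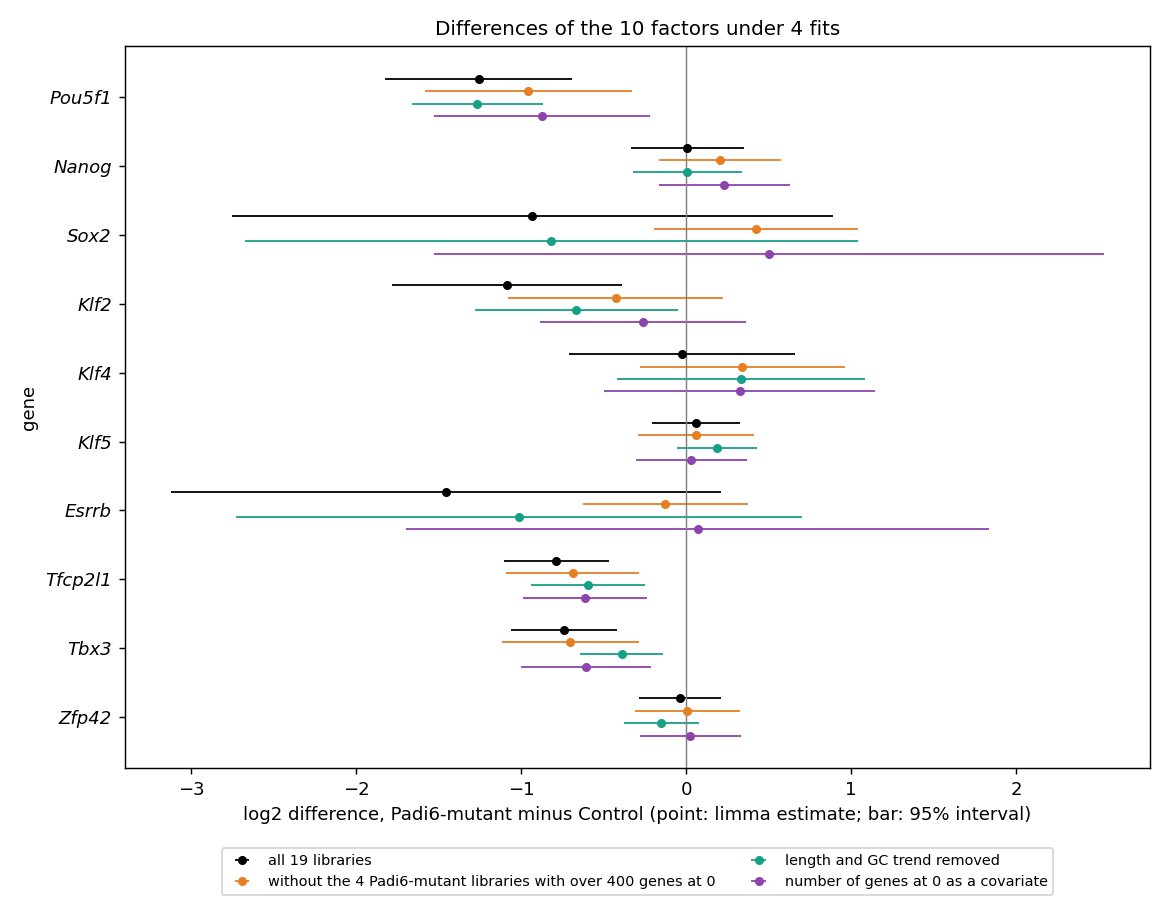
Difference of each factor, Padi6-mutant minus Control on the log2 scale, as the limma estimate (point) with its 95% interval (bar) from 4 fits: all 19 libraries, without the 4 sparse libraries, with the length and GC trend removed, and with the number of genes at 0 as a covariate. Intervals of Pou5f1, Tfcp2l1 and Tbx3 stay below 0 in all 4 fits, that of Klf2 reaches 0 in 2 of them, and those of Sox2 and Esrrb are wide in all fits that hold Padi6-mutant 10.

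Ratios between 2 factors within an embryo do not depend on how its library was scaled. Pou5f1 minus Nanog averaged −0.16 ± 0.53 in Padi6-mutant embryos and 1.10 ± 0.50 in Control embryos (SD, n = 9 and 10). All 9 Padi6-mutant embryos were below the Control median. The difference of −1.26 had an exact two-sided permutation p of 1.41e-04, or 0.00169 after Benjamini-Hochberg adjustment over the 12 ratios compared. It held without the sparse libraries (−1.16, adjusted exact p = 0.0200).

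Pou5f1 was also lower relative to Klf5 (−1.32, adjusted exact p = 0.00563), to Zfp42 (−1.22, 0.00563) and to Klf4 (−1.23, 0.0210). Without the sparse libraries these 3 differences were −1.02, −0.96 and −1.30, each with an adjusted exact p of 0.0551. Klf5 minus Klf2 was higher in Padi6-mutant embryos by 1.14 (adjusted exact p = 0.0210), and by 0.49 without the sparse libraries (0.274). Klf4 minus Klf2 differed by 1.06 and just missed the threshold (adjusted exact p = 0.0501), but passed it when Padi6-mutant 3, 5 or 10 or Control 10 was left out (adjusted exact p of 0.00977 to 0.0475). Against the other factors that were lower, Pou5f1 differed by −0.17 relative to Klf2 (adjusted exact p = 0.848), −0.47 relative to Tfcp2l1 (0.264) and −0.52 relative to Tbx3 (0.214). With the length and GC trend removed, the differences relative to Tfcp2l1 and Tbx3 were −0.67 (adjusted exact p = 0.0134) and −0.88 (1.73e-04). Relative to Sox2 the difference was −0.33 (adjusted exact p = 0.930) with all embryos and −1.29 (0.0210) without Padi6-mutant 10, which alone decided it.

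**Figure D3:**
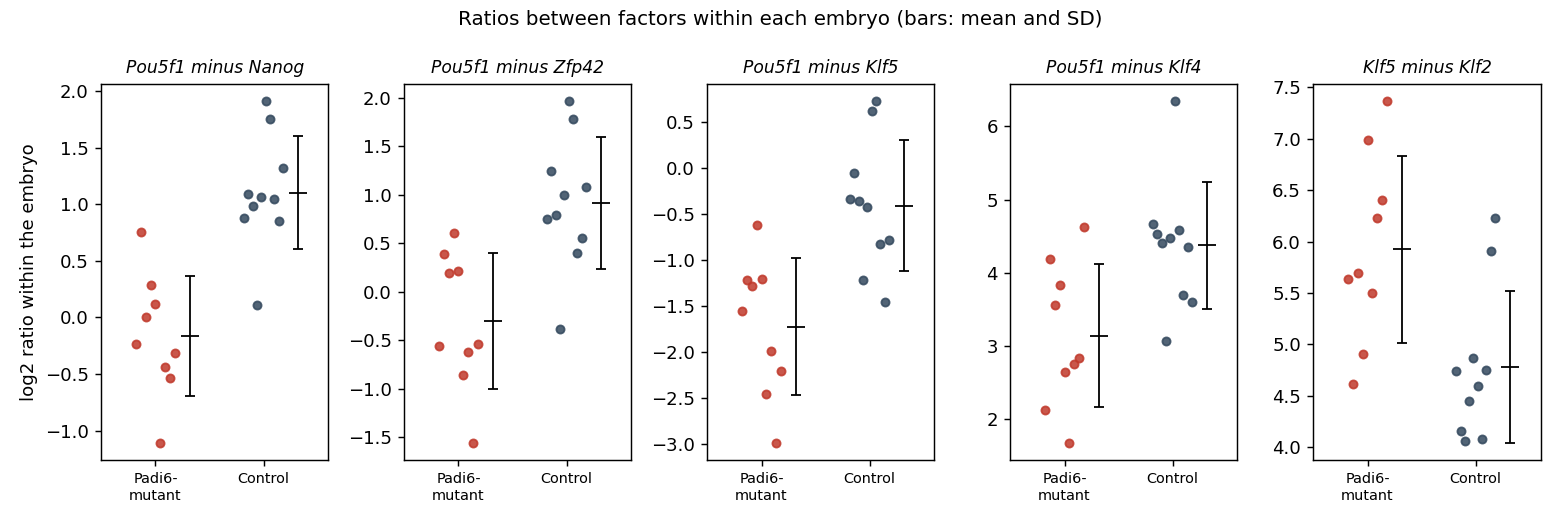
Log2 ratio between 2 factors within each embryo for 5 of the 12 pairs, Padi6-mutant left and Control right, with 1 point per embryo and bars for the mean and SD on axes that differ between panels. Pou5f1 minus Nanog scatters around 0 in Padi6-mutant embryos (mean −0.16) and is above 0 in every Control embryo (mean 1.10), and Klf5 minus Klf2 is higher in most Padi6-mutant embryos.

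Per kilobase of transcript, the order of the factors also differed. As log2(scaled count per kilobase + 1), Pou5f1 averaged 12.78 in Padi6-mutant and 14.03 in Control embryos, Klf5 13.20 and 13.14, and Zfp42 12.72 and 12.76. Sox2, Klf4, Klf2 and Esrrb were the lowest 4 in both groups by this measure. Pou5f1 had the highest level per kilobase in 4 of 9 Padi6-mutant embryos and in 8 of 10 Control embryos. Klf5 had it in 5 Padi6-mutant embryos and 1 Control embryo, and Zfp42 in 0 and 1. Of the summed level of the 10 factors per kilobase, Pou5f1 made up a median of 18.9% (10.4 to 30.7%) in Padi6-mutant embryos, against 32.8% (20.2 to 50.9%) in Control embryos. The share of Klf5 was 26.9% in Padi6-mutant and 18.3% in Control embryos. These shares are descriptions of the same values and were not tested.

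**Figure D4:**
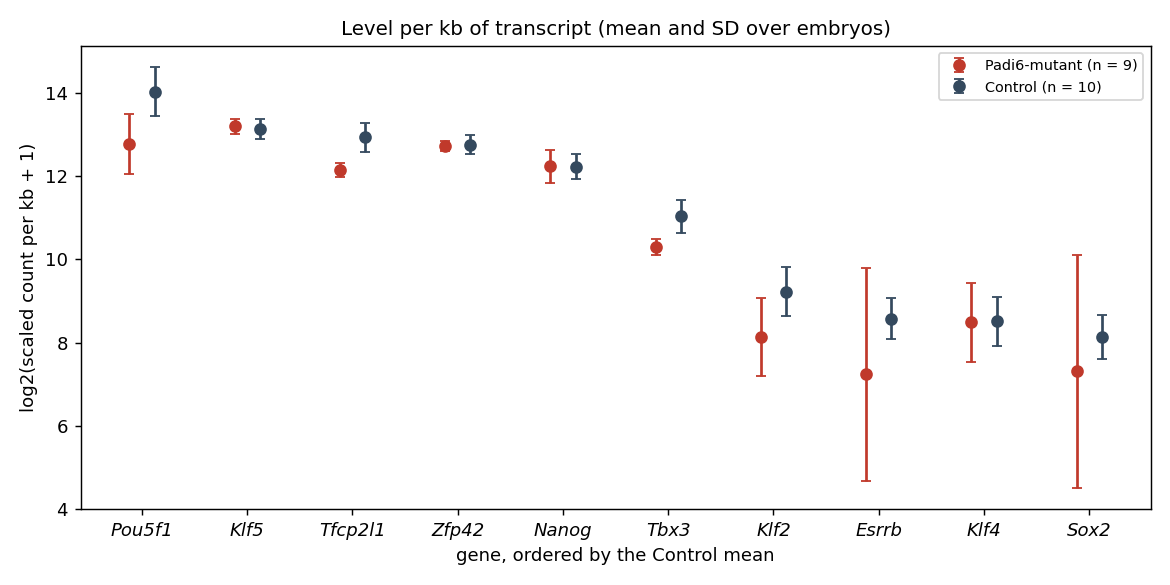
Mean level of each factor per kilobase of transcript, as log2(scaled count per kilobase + 1), with SD bars over 9 Padi6-mutant (left of each pair) and 10 Control embryos. Pou5f1 leads in Control embryos with a mean of 14.03 and lies below Klf5 in Padi6-mutant embryos, where the means are 12.78 and 13.20.

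The factors also differed in how much they varied between embryos of a group. Among genes with a mean within 0.5 log2 units of the factor's, 0.992% had a smaller SD than Zfp42 in Padi6-mutant embryos, 5.22% a smaller SD than Tfcp2l1, 5.34% than Tbx3 and 6.08% than Klf5. In Control embryos the shares were 8.15% for Zfp42, 22.7% for Tfcp2l1, 42.0% for Tbx3 and 8.87% for Klf5. For Tfcp2l1 the Control share rests on 21 other genes of similar level, against 114 in Padi6-mutant embryos. Pou5f1 was among the most variable in Padi6-mutant embryos, where 95.5% of genes of similar level had a smaller SD, against 75.5% in Control embryos. For Sox2, Esrrb and Klf4 the shares were 99.3%, 99.8% and 94.3% in Padi6-mutant embryos and 26.2%, 44.3% and 54.2% in Control embryos, and Padi6-mutant 10 was the lowest embryo for all 3.

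Embryo by embryo, the number of factors below every Control embryo ran from 1 in Padi6-mutant 5 to 7 in Padi6-mutant 10. It was 4 in Padi6-mutant 2, 2 in Padi6-mutant 3, 4 and 7, and 4, 5 and 6 in Padi6-mutant 6, 8 and 9. Over all genes, 9.09 to 19.9% lay below every Control embryo in a given Padi6-mutant library. The 4 sparse libraries had 4, 5, 6 and 7 such factors and the other 5 had 1 to 4. Among the sparse libraries the count did not follow the number of genes at 0. Padi6-mutant 6, with 596 genes at 0, had 4 such factors, and Padi6-mutant 9, with 411, had 6. The part of detection in the count was not tested. Tfcp2l1 was the factor that was below in all 9. Factors above every Control embryo were Sox2 and Klf4 in Padi6-mutant 2 and 7, Nanog in 4 and 5, and Klf4 in 6. Over all genes, 13.7 to 21.1% lay above every Control embryo in a given Padi6-mutant library, beside 0 to 2 of the 10 factors.

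Padi6-mutant 10 stood apart, and was looked at in more detail after its values were seen. Beside Sox2 at 0 and Esrrb at 2, it had 2 scaled counts of Prdm14, 12 of Pecam1, 4 of Otx2, 4 of Pdgfra, 0 of Gata4, 0 of Il6st and 2 of Lifr. For Prdm14, Pecam1, Otx2 and Pdgfra the other 8 Padi6-mutant embryos were at 6.63 or above on the log2 scale, but Gata4 and Lifr were also at 0 in another Padi6-mutant embryo, and Il6st was at 1.58 in Padi6-mutant 6. Nanog (13.06), Klf5 (14.95) and Zfp42 (13.29) were within the Control range in the same library. Of the other pluripotency factors listed, 13 of 24 were below every Control embryo. So were 4 of 4 surface and secreted markers of the inner cell mass, with Fgf4 counted in both lists. The same held for 7 of 13 markers of the primitive endoderm, the second lineage of the inner cell mass. Of 15 trophectoderm markers, 7 were above every Control embryo and 0 below. Of all genes in this library, 14.7% were above every Control embryo and 16.4% below. Some of these traits were shared. Id2, Dppa1, Tspan8 and Tfap2a were also above every Control embryo in Padi6-mutant 2, 8 and 9. Pecam1 was also below every Control embryo in Padi6-mutant 6, 7, 8 and 9. The marker lists were counted in Padi6-mutant 10 alone.

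**Figure D5:**
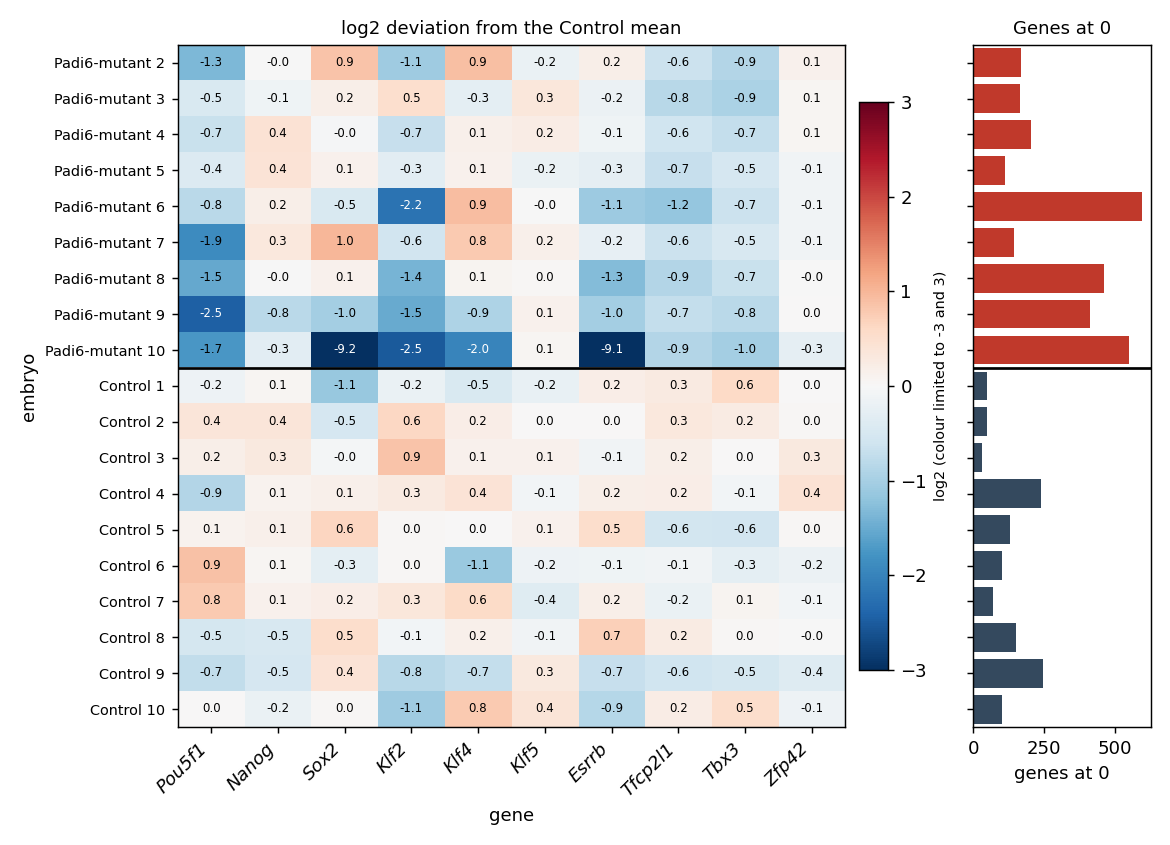
Deviation of each factor (columns) from its Control mean in every embryo (rows, Padi6-mutant above Control), in log2 units by colour and number, beside the number of listed genes at 0 in the same library. Tfcp2l1 and Tbx3 are below 0 in all 9 Padi6-mutant embryos, and Padi6-mutant 10 has −9.17 for Sox2 and −9.06 for Esrrb, beyond the colour scale.

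Within a group the factors moved together only loosely. Over 90 relations (45 pairs in each group), 0 passed after Benjamini-Hochberg adjustment by Pearson's r or Spearman's rho, and 12 had an unadjusted permutation p under 0.05 by Pearson's r, 7 in Padi6-mutant and 5 in Control embryos. In Padi6-mutant embryos 36 of 45 pairs had a positive r (median 0.32), against 26 of 45 in Control embryos (median 0.11). Padi6-mutant 10 was the lowest Padi6-mutant embryo for Sox2, Klf2, Klf4, Esrrb, Tbx3 and Zfp42, so pairs among these share a low embryo. The count was not made without it. The pair Tfcp2l1 and Tbx3, both lower in Padi6-mutant embryos, had r = 0.82 in Control embryos (permutation p = 0.0040, adjusted 0.159; rho = 0.78, p = 0.0103), and r = 0.53 without Control 5 and 9; in Padi6-mutant embryos r was 0.12. Nanog and Klf2 had r = 0.77 in Control embryos (permutation p = 0.0111; rho = 0.87, p = 0.0021, adjusted 0.190), and r = 0.94 without Control 8 and 9; in Padi6-mutant embryos r was 0.35. Sox2 and Esrrb had r = 0.99 in Padi6-mutant embryos and 0.58 without Padi6-mutant 9 and 10, so that value rests on those embryos; in Control embryos r was 0.12. Differences in r between the groups were not tested.

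Genes whose deviations from the group means were most like those of a factor, over all 19 embryos and among 7077 genes above the median level, are given as a description; the libraries' depth and detection are shared by all of them. For Pou5f1 they were Eif3h (r = 0.90), Psmd9 (0.89) and Uck2 (0.89), a translation initiation subunit, a proteasome chaperone and a uridine kinase. For Nanog they were Mfge8 (0.79), E2f4 (0.79) and Rinl (0.77). For Klf4 they were Rad23b (0.88), Cubn (0.88) and Ezh2 (0.85). For Sox2 they were Rnd3 (0.94), Epha4 (0.92) and Sall1 (0.91), which fell to 0.53, 0.59 and 0.59 without Padi6-mutant 7 and 10.

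Other pluripotency factors were lower more often than higher. Of 29 listed genes 24 were measured, and 8 were lower and 1 higher, with a median difference of −0.50. Over all genes, 12% were lower and 14.6% higher. Dppa5a, a KH-domain gene of early embryos, was the gene that rose. It lay between 17.00 and 18.18 in Padi6-mutant embryos and between 14.22 and 16.93 in Control embryos, with no overlap, as in 2.67% of all genes. Its difference was 2.1 (standard error 0.30, adjusted p = 1.67e-05, limma), and 0.75 (0.00135) after the length and GC trend was removed. Jade1 (−0.68, adjusted p = 0.00682), Ncoa3, a coactivator of ESRRB (−0.52, 0.00707), and Mybl2 (−0.99, 0.00988) fell. The falls of these 3 genes were lost when the length and GC trend was removed, and that of Mybl2 also with the covariate (−0.33, 0.420) and without the sparse libraries (−0.59, 0.162). The count of lower genes was 5 with the trend removed (10.2% of all genes), against 4 without the sparse libraries (6.64%) and 2 with the covariate (3.52%).

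Genes of the LIF and STAT3 pathway, which sustains Klf4 and Tfcp2l1 in mouse embryonic stem cells, gave 3 lower and 1 higher of 11 measured, with a median difference of −0.61. The shares of all genes were 12% lower and 14.6% higher. The receptor subunit Il6st (gp130) lay between 0 and 9.61 in Padi6-mutant embryos, with a median of 8.28, against 7.59 to 10.25 and a median of 9.96 in Control embryos (−2.94, adjusted p = 0.0313, limma). The kinase Tyk2 fell by 0.86 (adjusted p = 0.0121) and the phosphatase Ptpn11 by 0.61 (0.00424). The ligand Lif rose by 1.02 (0.0280). The call of Il6st was lost without Padi6-mutant 6 (−2.31, adjusted p = 0.0598), Control 1 (−2.87, 0.0518) or Control 3 (−2.86, 0.0506), and that of Lif without Padi6-mutant 8 or 9 (0.89, 0.0592 and 0.0567). Stat3 itself differed by −0.09 (0.844). Without the sparse libraries, and likewise with the covariate, none of the 11 passed in either direction, and after the length and GC trend was removed 0 were lower and 1 was higher. In these fits, in that order, 6.64, 3.52 and 10.2% of all genes were lower and 11.9, 9.23 and 10.6% higher.

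Genes of the WNT, GSK3 and TCF3 input, which restrains or frees Esrrb and Klf2, gave 1 lower and 1 higher of 11 measured, with a median of −0.39. Among all genes 12% were lower and 14.6% higher, so neither count stood out. The coreceptor Lrp5 fell by 0.91 (adjusted p = 0.00110, limma), and by 0.38 (0.0682) after the length and GC trend was removed. The kinase Gsk3b rose by 0.57 (0.0334). This call was lost with the covariate (0.21, 0.552), without the sparse libraries (0.32, 0.346) and after quantile normalization (0.36, 0.183). It was also lost with no variance trend (0.57, 0.0514) and with the replicate number as a block (0.55, 0.0527). The same held when Padi6-mutant 8, 9 or 10 or Control 1, 2, 3, 6 or 7 was left out (0.50 to 0.55, adjusted p of 0.0561 to 0.0672). Of the formative and primed factors, which take over as cells leave the naive state, 3 of 11 were listed and 0 passed limma in either direction, with 1 higher and 0 lower at an unadjusted p under 0.05. Dnmt3b differed by −0.36 (0.189) and Tcf15 by 0.79 (0.0830). Tcf15 passed without the sparse libraries (1.11, 0.0295), with library quality weights (0.79, 0.0475) and without Padi6-mutant 8 (1.03, 0.0128).

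Markers of the blastocyst's other cells were measured beside the factors. Their counts stand beside 12% of all genes lower and 14.6% higher. Of 13 measured markers of the primitive endoderm 7 were lower and 0 higher (median −1.10), led by Lamc1 (−1.0, adjusted p = 9.74e-04, limma), Lamb1 (−1.46, 0.00194), Cubn (−1.97, 0.00829) and Col4a1 (−1.35, 0.0194). The count of lower ones was 4 without the sparse libraries (6.64% of all genes), 4 with the length and GC trend removed (10.2%) and 1 with the covariate (3.52%). The call of Col4a1 was lost in all 3 of these fits (−0.69, 0.223 without the sparse libraries; −0.82, 0.156 with the trend removed; −0.42, 0.539 with the covariate), and those of Lamb1 (−1.04, 0.0749) and Cubn (−1.58, 0.116) with the covariate. The log2 of the summed level of all 13 measured markers lay between 16.13 and 16.67 in Padi6-mutant and between 16.08 and 17.35 in Control embryos. Of 15 measured trophectoderm markers 1 was lower and 4 were higher (median 0.12), led by Dppa1 (2.01, 3.59e-04), Tspan8 (1.48, 0.00156), Id2 (1.15, 0.0128) and Tfap2a (0.76, 0.0190). The log2 of the summed level of all 15 lay between 17.14 and 19.45 in Padi6-mutant and between 18.22 and 18.79 in Control embryos. The first 3 of these rises were lost when the length and GC trend was removed. Tfap2a was lost with the covariate (0.65, 0.150) and without the sparse libraries (0.68, 0.0863), and Id2 with the covariate (1.21, 0.0593). The defining factors Cdx2 (−0.36, 0.214) and Gata3 (0.15, 0.642) did not pass.

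Of 4 measured surface and secreted markers of the inner cell mass 2 were lower and 0 higher (median −1.34), against 12% and 14.6% of all genes. They were Pecam1 (−2.04, adjusted p = 0.0214, limma) and Fgf4 (−1.30, 0.0260), and with the covariate neither passed. Fgf4 is also counted among the other pluripotency factors that were lower. Fgf4 was also lost without Control 3 (−1.16, 0.0532), without the sparse libraries (−0.70, 0.256), with the length and GC trend removed (−1.08, 0.0643) and with the replicate number as a block (−1.39, 0.0502). The log2 of the summed level of all 4 measured markers lay between 9.65 and 15.29 in Padi6-mutant and between 13.45 and 15.53 in Control embryos. Of 12 markers of cumulus and granulosa cells, the maternal cells around an oocyte, 1 was listed, Star (−0.36, 0.645). The part of these cell types in the differences of the 10 factors was not tested.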

How the data were processed

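Polyadenylated RNA of 19 single blastocysts was captured on oligo-dT beads by the G&T protocol, amplified with 17 PCR cycles and read in pairs of 75 bp after a Nextera XT preparation, per the labels' protocols, which give a mean depth of 4.2 M reads and 20 pooled libraries, of which 19 were used here. The submitters' processing notes name Trim Galore 0.4.4, HISAT2 2.1.0 and the build GRCm39; the counting tool is not given in the sources used here. The deposited table holds log2 values of counts scaled by the authors to a common upper quartile, plus 1: 2 raised to a value came to within 1.96e-07 of a whole number for all genes and libraries. The depth behind a scaled count is therefore not known from the table, and 1 scaled count is not 1 read. No gene filter was applied, since no gene in the table was above 0 in fewer than 9 libraries, and no libraries were duplicates (highest Spearman's rho 0.972).

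Groups were compared with limma 3.58.1 (trended variance, two-sided) in R 4.3.3 over all 14173 genes, with Benjamini-Hochberg adjustment and a threshold of 0.05; the fit was tested on simulated data. Single factors and within-embryo ratios were also compared by exact permutation over 92378 splits (Python 3.11.15), the 12 ratios being Pou5f1 against each other factor and the 3 pairs of Klf2, Klf4 and Klf5. Embryos were taken as independent; with no litter given, p-values measure the spread between these embryos only. Transcript lengths (principal transcript, GENCODE release M 21) were found for 13357 genes (94.2%) and served for levels per kilobase and for a lowess trend on length and GC content (span 0.3). The alternatives were quantile normalization, median centring, a pseudocount of 8, filters on level or on zeros, no variance trend, a robust variance, library quality weights, the number of genes at 0 as a covariate, omission of the libraries with over 400 genes at 0, removal of the length and GC trend, a replicate block and omission of each embryo.

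The 10 factors and the gene lists were chosen with earlier results of these data known. Named genes are the 10 factors, Padi6, at most 4 genes of each other list, by smallest adjusted p under 0.05 (at most 2, by highest mean, in a list with no gene past it), and the 3 genes most like Pou5f1, Nanog, Sox2 and Klf4. Stat3, Cdx2, Gata3 and the genes given for Padi6-mutant 10 alone were named beyond that rule after their values were seen.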

Additional observations from a re-analysis of the deposited data

Results flagged for a closer look

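In 7 of 44 sets of values checked (each factor and ratio in each group), 1 embryo lay so far from its nearest neighbour that it stood apart from its group by Dixon's criterion, which chance alone meets in about 1 of 20 sets. Padi6-mutant 10 had a log2 level of 0 for Sox2, with the next embryo at 8.15, and of 1.58 for Esrrb, with the next at 9.35. The same embryo had the highest Pou5f1 minus Sox2, at 12.7, and the highest Pou5f1 minus Esrrb, at 11.2. Padi6-mutant 6 had the lowest Tfcp2l1, at 14.98, below 15.27 in the next embryo. Among Control embryos, Pou5f1 minus Klf4 was 6.35 in Control 6, and Klf4 minus Klf2 was 1.85 in Control 10.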

How the results depend on the processing

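Under the alternatives other than the omission of single embryos, Tfcp2l1 and Tbx3 kept their direction and passed in all 13 fits, Pou5f1 passed in 12 and Klf2 in 10. With the number of genes at 0 as a covariate, 1807 genes differed between the groups in either direction in place of 3765. In that fit 2 of the 10 factors were lower in place of 4, and 3.52% of all genes in place of 12%. Leaving out each embryo in turn gave 3035 to 4288 genes that differed in either direction, and 4 lower factors every time. Same-numbered embryos were not alike in their values: they had correlations of −0.07 to 0.15, and 1 of 9 Padi6-mutant embryos correlated best with its own number. Such correlations cannot settle whether equal numbers share a litter or day, which is not given. With the replicate number as a block, 2528 genes differed (17.8%) in either direction, and 6.96% of all genes were lower. In that fit 4 factors were lower, with differences of −1.27 for Pou5f1, −1.11 for Klf2, −0.75 for Tfcp2l1 and −0.67 for Tbx3.

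The values that changed sign all belonged to differences that had not passed. Nanog was at −0.14 after quantile normalization and −0.019 after median centring, and Klf5 at −0.36 after quantile normalization. Klf4 was at 0.027 with library quality weights. With the number of genes at 0 as a covariate, the differences were 0.50 for Sox2, 0.32 for Klf4, 0.069 for Esrrb and 0.025 for Zfp42. Without the 4 sparse libraries they were 0.42 for Sox2, 0.34 for Klf4, 0.0080 for Zfp42, −0.83 for Pou5f1 minus Esrrb and −0.28 for Klf5 minus Klf4. With the length and GC trend removed they were 0.33 for Klf4, −0.26 for Pou5f1 minus Esrrb and −0.15 for Klf5 minus Klf4. Over the omission of single embryos the values ran from −0.049 to 0.11 for Nanog, −1.17 to 0.10 for Sox2, −0.15 to 0.22 for Klf4, −0.079 to 0.012 for Zfp42, −0.69 to 0.43 for Pou5f1 minus Esrrb and −0.17 to 0.23 for Klf5 minus Klf4. The cause of these changes was not tested. Sox2 has no value in the 2 fits limited to genes above the median level or above 0 in every library. The depth behind a scaled count is not known, so a level of 0, as for Sox2 in Padi6-mutant 10, does not show that a transcript was absent.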
